A study of Rattus norvegicus with 34 samples.

Results

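The subject is a stretch of rat chromosome 7 at 60800001 to 62200000 of the Rnor_6.0 build, made up of 1400 windows of 1 kb among 2782040 windows in the genome. It was delimited by position, around windows whose signal had been called higher in sperm of the ifosfamide lineage than in control sperm. The contrasts with the control therefore chose the segment, and their values are given below as descriptions, without a test. Flanks of the same length lie at 59400001 to 60800000 (left) and 62200001 to 63600000 (right). At the left edge the signal was low on both sides. The first window inside it averaged 0.162 ± 0.052 CPM in F2 ifosfamide pools, 0.114 ± 0.0642 CPM in F1 ifosfamide pools and 0.155 ± 0.095 CPM in F1 control pools (SD, n = 6 each), and the window just outside it, at 60799001, averaged 0.187 CPM in F2 ifosfamide, 0.217 CPM in F1 ifosfamide and 0.139 CPM in F1 control pools. At the right edge the last window inside, at 62199001, averaged 0.0914 CPM in F2 ifosfamide, 0.123 CPM in F1 ifosfamide and 0.0691 CPM in F1 control pools. The window just outside, at 62200001, averaged 0.486 CPM in F2 ifosfamide, 0.443 CPM in F1 ifosfamide and 0.390 CPM in F1 control pools. CPM is the count scaled to a library of 1000000 counts, with libraries brought to one scale by the trimmed mean of M values (TMM).

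Sperm DNA of outbred Sprague Dawley rats was profiled by methylated DNA immunoprecipitation sequencing (MeDIP-seq), and 18 of the 34 labelled libraries are used. The 6 F2 ifosfamide pools held 8 to 9 males each and descended, through untreated F1 parents, from F0 males injected with 8.5 mg/kg ifosfamide, an alkylating chemotherapy drug, on days 26, 29 and 32 of age. The 6 F1 ifosfamide pools held 3 to 4 males each, sired by the injected F0 males. The 6 F1 control pools held 3 to 4 sons of F0 males given 1.1 mL/kg phosphate-buffered saline on the same days. The labels name 5 ifosfamide-treated and 3 saline-treated F0 males, so lineage, founders and inherited sequence differences of an outbred stock cannot be told apart. F2 ifosfamide pools are set against F1 controls here, so generation and pool size cannot be told apart from lineage in that comparison, and they differ between the ifosfamide groups as well. The other 16 libraries were not analysed here, and the age of the sampled males is not given in the sources used here.

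In mammals DNA is methylated mainly at cytosines followed by guanine, and mature sperm carry this mark over most of the genome, with unmethylated islands at many promoters. Methylation patterns are erased and rebuilt in the male germ line before sperm form. In MeDIP an antibody against methylated cytosine pulls down DNA fragments, so the read count of a window depends on its methylation, on how many methylatable cytosines it holds and on its number of copies. These contributions are not separated in a count.

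Libraries held 23336048 to 39440265 counts over all windows, and 15336 to 26712 of them fell in the segment. Within the F1 ifosfamide group, pools 1 and 2 lay closer to each other than to the other pools. The chi-square per degree of freedom between them was 1.06 over 1809434 windows, against 1.25 to 1.53 for either of them with pools 3 to 6. Sums, ratios, bins, signal classes, the segment median and counts of called windows that use them are therefore also given without both. Since reads that cross a border count in both windows (1.16 to 1.25 windows per read), adjacent windows share reads.

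The segment was a stretch of moderate signal. Its windows averaged 0.483 CPM over the 18 pools, against 0.446 CPM in the left flank, 0.488 CPM in the right flank and 0.359 CPM over all windows. A mean of at least 10 counts per pool was reached by 761 windows (54.4%), and 163 windows held 1 CPM or more. The highest signal lay at 62023001, with 3.92 CPM over all pools. In 32 windows no pool had a count, and the longest such run covered 8 windows at 61913001 to 61921000. Among windows with at least 10 counts per pool, the median coefficient of variation between the 6 control pools was 24.5%, so a single window is a noisy measure and the sum over the segment a much tighter one.

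Summed over its 1400 windows, the segment carried more signal in both ifosfamide groups than in controls. The sum was 678, 682 and 691 CPM in the lowest, median and highest F2 ifosfamide pool, 674, 679 and 697 CPM in F1 ifosfamide pools and 653, 663 and 670 CPM in F1 control pools. All 12 ifosfamide pools lay above all 6 control pools, whereas the F2 ifosfamide pools lay within the wider range of the F1 ifosfamide pools. The means were 683 ± 5.01 CPM in F2 ifosfamide pools, 682 ± 9.35 CPM in F1 ifosfamide pools and 662 ± 7.29 CPM in F1 control pools (SD, n = 6 each). The excess over the control was 3.08% for F2 ifosfamide (log2 ratio 0.044, SE 0.0078) and 3.05% for F1 ifosfamide (log2 ratio 0.043, SE 0.010). The SD between pools was 0.73% of the mean in F2 ifosfamide, 1.37% in F1 ifosfamide and 1.10% in F1 control pools. Counting error alone, with every count taken as a separate read, gives 0.69% in F2 ifosfamide, 0.67% in F1 ifosfamide and 0.74% in F1 control pools. As some reads count in adjacent windows, these figures understate the counting error. As a background for such an arrangement, the genome was cut into 1977 tiles of the same length. All 6 F2 ifosfamide pools lay above all 6 controls in 0.405% of the tiles and all 6 F1 ifosfamide pools did so in 0.253%. All 12 did so in 0% of the tiles, none of which is placed exactly on the segment. In size the segment was less unusual. The log2 ratio of a tile to the control had an SD between tiles of 0.026 in each contrast. Without the extreme tiles at each end, these ratios ran from -0.037 to 0.056 for F2 ifosfamide. For F1 ifosfamide they ran from -0.049 to 0.040. The segment's 0.044 lay inside the F2 range, and its 0.043 lay slightly above the F1 range. Since the segment was chosen for higher windows in these contrasts, nothing is read from those shares or from its place among the tiles.

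**Figure D1:**
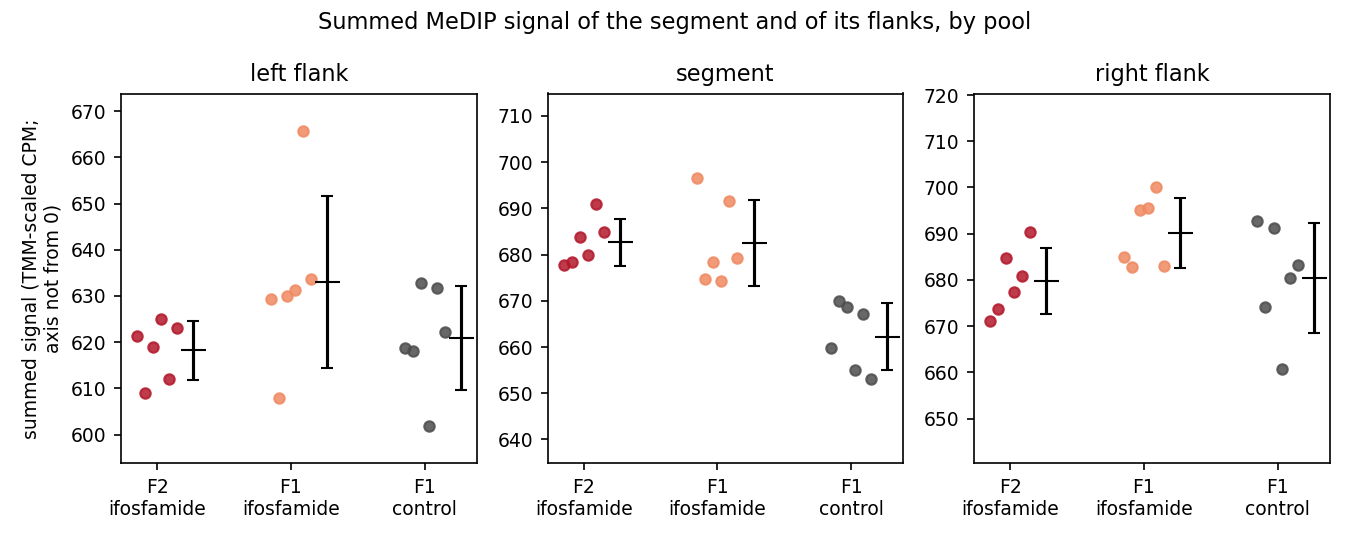
Summed signal (TMM-scaled CPM) of the left flank, the segment and the right flank, 1 point per pool, with the mean and SD of 6 pools in black, over axes of equal span that do not start at 0. In the segment every ifosfamide pool lies above every control pool (lowest ifosfamide pool 674 CPM, highest control pool 670 CPM), and in both flanks the groups overlap.

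F2 and F1 ifosfamide pools differed in summed signal by less than their spread. Their log2 ratio was 0.00045 (SE 0.0091), and the exact two-sided permutation test over the 924 divisions of the 12 pools gave p = 0.974, also after Benjamini-Hochberg adjustment over 6 tests of this kind. The same pools enter the contrasts that chose the segment, so this test is not fully independent of that choice. Without F1 ifosfamide pools 1 and 2 the log2 ratio of F1 ifosfamide to F1 control was 0.040, and that of F2 to F1 ifosfamide was 0.0037 (exact permutation p = 0.700, also after adjustment over 6 tests).

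In the flanks the groups overlapped. In the left flank the sum was 618 ± 6.40 CPM in F2 ifosfamide pools, 633 ± 18.6 CPM in F1 ifosfamide pools and 621 ± 11.3 CPM in F1 control pools. In the right flank it was 680 ± 7.13 CPM in F2 ifosfamide, 690 ± 7.55 CPM in F1 ifosfamide and 680 ± 11.9 CPM in F1 control pools (SD, n = 6 each). Over both flanks F2 ifosfamide was level with the control (log2 ratio -0.0035, SE 0.011), while F1 ifosfamide lay somewhat higher (log2 ratio 0.024, SE 0.015), with 3 of its 6 pools above every control pool. Without F1 ifosfamide pools 1 and 2 the F1 ratio over both flanks was 0.036 (SE 0.015), with 3 of 4 pools above every control pool.

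The segment was then set against the mean of its flanks in each pool. The ratio of segment to flanks was 1.05 ± 0.00981 in F2 ifosfamide pools, 1.03 ± 0.0182 in F1 ifosfamide pools and 1.02 ± 0.0158 in F1 control pools (SD, n = 6 each). Every F2 ifosfamide pool lay above every control pool by this measure, with a mean excess of 3.33%. Of the F1 ifosfamide pools 2 did, and these were pools 1 and 2, with a mean excess of 1.33% over all 6 pools. F2 ifosfamide exceeded F1 ifosfamide by 1.97%, with an exact permutation p = 0.0433 that became 0.0866 after adjustment over the 6 tests and so did not pass 0.05. Without pools 1 and 2 the ratio was 1.02 ± 0.00851 in F1 ifosfamide pools (SD, n = 4), 0.311% above the control, with none of the 4 above every control pool. F2 ifosfamide then exceeded F1 ifosfamide by 3.01%, with all 6 F2 pools above all 4 F1 pools and an exact permutation p = 0.00476, the smallest the 210 divisions allow, or 0.00952 after adjustment over 6 tests. Pools 1 and 2 were left out after the data were seen and had the highest F1 ratios (1.06 and 1.05). The 4 pools kept reached at most 1.03, and the lowest F2 pool had 1.04. The separation thus followed from the removal, and nothing is read from this p. In F2 ifosfamide the flanks fell 0.245% short of the control beside an excess of 3.08% in the segment, and in F1 ifosfamide the flanks carried an excess of 1.69% beside 3.05% in the segment. Without pools 1 and 2 these F1 values were 2.49% in the flanks and 2.81% in the segment.

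Single windows, fitted over the whole genome with edgeR, set the segment apart from its flanks in F2 more than in F1 ifosfamide. Of 703 segment windows tested in F2 ifosfamide against F1 control, 395 (56.2%) were above 0, with a median log2 fold change of 0.042. The medians were -0.0050 in the left flank, -0.0075 in the right flank and -0.00048 over all 919249 windows tested. There 49.1%, 48.8% and 49.9% of windows were above 0, in the same order. In F1 ifosfamide against F1 control 439 of 783 windows (56.1%) were above 0, with a median of 0.043. This stood beside medians of 0.033 in the left flank, 0.029 in the right flank and 0.0050 over all 1043656 windows tested. The F1 shares above 0 were 57.1% in the left flank, 55.9% in the right flank and 50.9% over all windows tested. By this share the segment was level with its flanks in F1 ifosfamide. The difference between segment and flank medians was 0.049 in F2 ifosfamide and 0.012 in F1 ifosfamide. Both medians moved with the choice of windows, and the F1 median also with the choice of pools. The F2 median was 0.020 with a minimum count of 5 and 0.026 with a minimum count of 30. In F1 ifosfamide, without both F1 ifosfamide pools 1 and 2 it was 0.024, and among the 189 windows that pass a minimum count of 30 it was -0.013, on the other side of 0.

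Bins above 0 lay along most of the segment in both generations. In 100 kb bins, 10 of 14 bins were above 0 in F2 ifosfamide against F1 control and 12 of 14 in F1 ifosfamide against F1 control. The flanks had 4 (left) and 7 (right) of 14 bins above 0 in F2 ifosfamide, and 10 (left) and 9 (right) of 14 in F1 ifosfamide. In F2 ifosfamide the highest bin, at 61100001 to 61200000, had a log2 ratio of 0.12 and the lowest, at 61700001 to 61800000, had -0.028. In F1 ifosfamide the highest bin was that at 62100001 to 62200000 with 0.11, and its neighbour at 62000001 to 62100000 was the lowest with -0.086. Only 1 segment bin of the F2 contrast and 4 of the F1 contrast lay above the highest of the 28 flank bins. In the direct comparison of F2 with F1 ifosfamide, 7 of 14 bins were above 0, and none passed 0.05 by the exact permutation test after adjustment over 14 bins (smallest adjusted p = 0.0530). Without F1 ifosfamide pools 1 and 2, 11 of 14 segment bins were above 0 in F1 ifosfamide against F1 control and 0 lay above the highest flank bin. Between F2 and F1 ifosfamide 8 of 14 bins were then above 0, with a smallest adjusted exact permutation p of 0.0667.

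**Figure D2:**
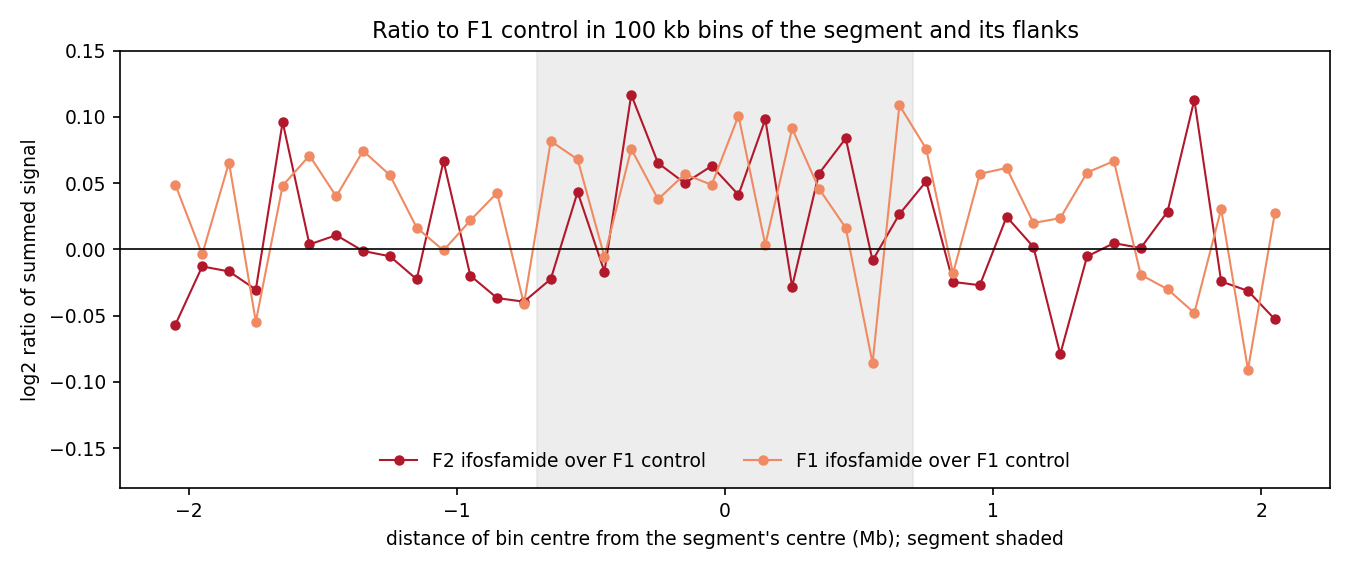
Log2 ratio of summed signal to F1 control in 100 kb bins, for F2 ifosfamide and F1 ifosfamide pools (means of 6 pools), against the distance of the bin centre from the segment's centre in Mb, with the segment shaded. F2 ifosfamide runs above 0 in 10 of 14 segment bins and in 4 and 7 of 14 flank bins, and F1 ifosfamide runs above 0 in most bins of the segment (12), of the left flank (10) and of the right flank (9).

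An excess was also measured away from the windows called one by one. Leaving out the 23 windows called in any of the 3 comparisons and all windows within 5 kb of them removed 227 windows and left 1173. The sum over these was 555 ± 3.59 CPM in F2 ifosfamide pools, 559 ± 7.31 CPM in F1 ifosfamide pools and 543 ± 8.62 CPM in F1 control pools (SD, n = 6 each). The log2 ratio to the control was 0.033 (SE 0.010) for F2 ifosfamide and 0.042 (SE 0.012) for F1 ifosfamide, with 5 of 6 pools above every control pool in each. Over all windows of both flanks it was -0.0035 (SE 0.011) for F2 ifosfamide and 0.024 (SE 0.015) for F1 ifosfamide. Between F2 and F1 ifosfamide the log2 ratio away from called windows was -0.0090, with an exact permutation p = 0.335 and 0.403 after adjustment over the 6 tests. Without F1 ifosfamide pools 1 and 2 the F1 ratio to the control was 0.040 (SE 0.014), with 3 of 4 pools above every control pool, and F2 against F1 ifosfamide gave -0.0073 (exact permutation p = 0.505, adjusted p = 0.606). Over both flanks the F1 ratio was then 0.036 (SE 0.015), so the F1 excess away from called windows was little above that of the flanks.

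Sorted by signal strength, with classes set after the data were seen, the excess over the control lay in the middle and strong classes in F2 ifosfamide, while the F1 ifosfamide ratio was above 0 in every class. The 714 windows with 0.25 to 1 CPM held 55.0% of the segment's signal and summed to 376 CPM in F2 ifosfamide, 376 CPM in F1 ifosfamide and 363 CPM in F1 control pools (log2 ratio to the control 0.053, SE 0.0089, in F2 ifosfamide and 0.051, SE 0.011, in F1 ifosfamide), with 6 of 6 F2 and 5 of 6 F1 ifosfamide pools above every control pool. In the flanks this middle class had an F1 ifosfamide excess as well (log2 ratio 0.035, SE 0.012), again with 5 of 6 pools above every control pool. F2 ifosfamide was level with the control there (log2 ratio -0.0043, SE 0.0099). Of the weakest 523 windows, below 0.25 CPM, the sum was 67.3 CPM in F2 ifosfamide, 71.6 CPM in F1 ifosfamide and 69.8 CPM in F1 control pools. In this class F2 ifosfamide was lower than F1 ifosfamide (log2 ratio -0.089, SE 0.019, exact permutation p = 0.00216, the smallest the 924 divisions allow, and 0.00649 adjusted over 3 classes). The same log2 ratio of the weakest class was -0.030 (SE 0.031) in the flanks and -0.019 (SE 0.020) over all windows. In the 163 windows of 1 CPM or more the sums were 239, 235 and 230 CPM in F2 ifosfamide, F1 ifosfamide and F1 control pools. The log2 ratio to the control there was 0.058 (SE 0.021) in F2 ifosfamide, with 4 of 6 pools above every control pool, and 0.033 (SE 0.021) in F1 ifosfamide, with 2 of 6. Without F1 ifosfamide pools 1 and 2 the F1 ratios to the control were 0.047, 0.044 and 0.031 from the weakest class to the strongest. F2 against F1 ifosfamide then gave -0.099 in the weakest class (exact permutation p = 0.00476, adjusted over 3 classes p = 0.0143).

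Within the segment 4 windows were called higher against the control, meaning an adjusted p below 0.05 by edgeR's quasi-likelihood test with Benjamini-Hochberg adjustment over all windows. They lie 437, 76 and 217 kb apart, in order. In F2 ifosfamide against F1 control 2 windows were called higher, where 0.0186% of all windows tested were called higher, and none lower (0.0125% of all windows). In F1 ifosfamide against F1 control 3 windows were called higher, where 0.00546% of all windows tested were, and again none lower (0.0543% of all windows). At an unadjusted p below 0.05, the same edgeR fits had 63 higher (8.96%) and 36 lower (5.12%) windows for F2, beside 4.36% higher and 6.24% lower in the flanks. For F1 they had 60 higher (7.66%) and 26 lower (3.32%), beside 5.31% higher and 3.09% lower in the flanks, so higher windows outnumbered lower ones in the F1 flanks as well. DESeq2's Wald test called none lower, but it gave an adjusted p to 35 of the 783 F1 windows. Leaving out pools gave 1 lower call in some fits: in F1 without control pool 1, without control pool 5 or without F1 ifosfamide pools 1 and 2, and in F2 without F2 ifosfamide pool 1. Because the segment was chosen on these contrasts, nothing is read from the counts.

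The window at 61898001 to 61899000 was the one called in both generations. Its signal was 1.53, 1.98 and 2.56 CPM in the lowest, median and highest F2 ifosfamide pool, 1.68, 2.04 and 2.29 CPM in F1 ifosfamide pools, and 0.700, 1.14 and 1.51 CPM in F1 control pools. All 12 ifosfamide pools were above all controls, the lowest of them by a narrow margin. It is the only such window among the 761 with at least 10 counts per pool, and 0.00745% of windows in the genome had this arrangement. The log2 fold change was 0.79 (SE 0.15) for F2 ifosfamide and 0.80 (SE 0.15) for F1 ifosfamide. The direct comparison of F2 with F1 ifosfamide gave -0.0065 (SE 0.13, adjusted p = 0.989 in edgeR's quasi-likelihood test with Benjamini-Hochberg adjustment). The window was chosen for high pools in both ifosfamide groups, which favours a small difference between them. Nothing is read from this p. The F2 call ended without F2 ifosfamide pool 5.

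At 61605001 to 61606000 the excess was stronger in F1 than in F2 ifosfamide sperm. The signal was 0.311, 0.565 and 0.905 CPM in the lowest, median and highest F2 ifosfamide pool, 0.808, 0.959 and 1.17 CPM in F1 ifosfamide pools and 0.301, 0.388 and 0.503 CPM in F1 control pools. F1 ifosfamide pools were separate from the controls, and F2 ifosfamide pools spread over the range of both. The log2 fold change was 0.59 (SE 0.23) for F2 ifosfamide and 1.30 (SE 0.20) for F1 ifosfamide. F2 ifosfamide was lower than F1 ifosfamide (log2 fold change -0.70, SE 0.19, adjusted p = 0.0236 in edgeR's quasi-likelihood test with Benjamini-Hochberg adjustment). That comparison shares its F1 ifosfamide pools with the contrast that chose the window, so it is not independent of the choice, and the call ended with DESeq2 (adjusted p = 0.0584) and without F1 ifosfamide pool 6 or F2 ifosfamide pool 2, 4 or 5.

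At 61681001 to 61682000 the order was the other way round. Here the lowest, median and highest F2 ifosfamide pool had 1.78, 2.25 and 3.41 CPM, F1 ifosfamide pools had 1.06, 1.53 and 2.49 CPM, and F1 control pools had 0.622, 1.34 and 2.01 CPM. The groups overlapped, with 5 of the F2 ifosfamide pools above the highest control pool. The log2 fold change was 0.88 (SE 0.15) for F2 ifosfamide and 0.24 (SE 0.17) for F1 ifosfamide. F2 exceeded F1 ifosfamide (log2 fold change 0.64, SE 0.15, adjusted p = 0.00761 in edgeR's quasi-likelihood test with Benjamini-Hochberg adjustment), again with the F2 pools that chose the window. This call ended without F1 ifosfamide pool 3 or F2 ifosfamide pool 4 or 5, and the call of F2 ifosfamide against F1 control ended with DESeq2.

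The window at 61168001 to 61169000 was called in F1 but not in F2 ifosfamide with all pools, and its values were high in both ifosfamide groups. They were 0.526, 0.871 and 1.06 CPM in the lowest, median and highest F2 ifosfamide pool, 0.746, 1.00 and 1.06 CPM in F1 ifosfamide pools, and 0.171, 0.365 and 0.723 CPM in F1 control pools. F1 ifosfamide pools were all above the controls, and 2 of the F2 ifosfamide pools fell within the range of the controls. The log2 fold change was 0.96 (SE 0.22) for F2 ifosfamide and 1.20 (SE 0.21) for F1 ifosfamide, and F2 against F1 ifosfamide gave -0.24 (SE 0.17, adjusted p = 0.529 in edgeR's quasi-likelihood test with Benjamini-Hochberg adjustment). That last comparison shares its F1 ifosfamide pools with the contrast that chose the window, so it is not independent of the choice. The window was also called in F2 ifosfamide against F1 control when control pool 1 or 2 or F2 ifosfamide pool 2 or 6 was left out.

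**Figure D3:**
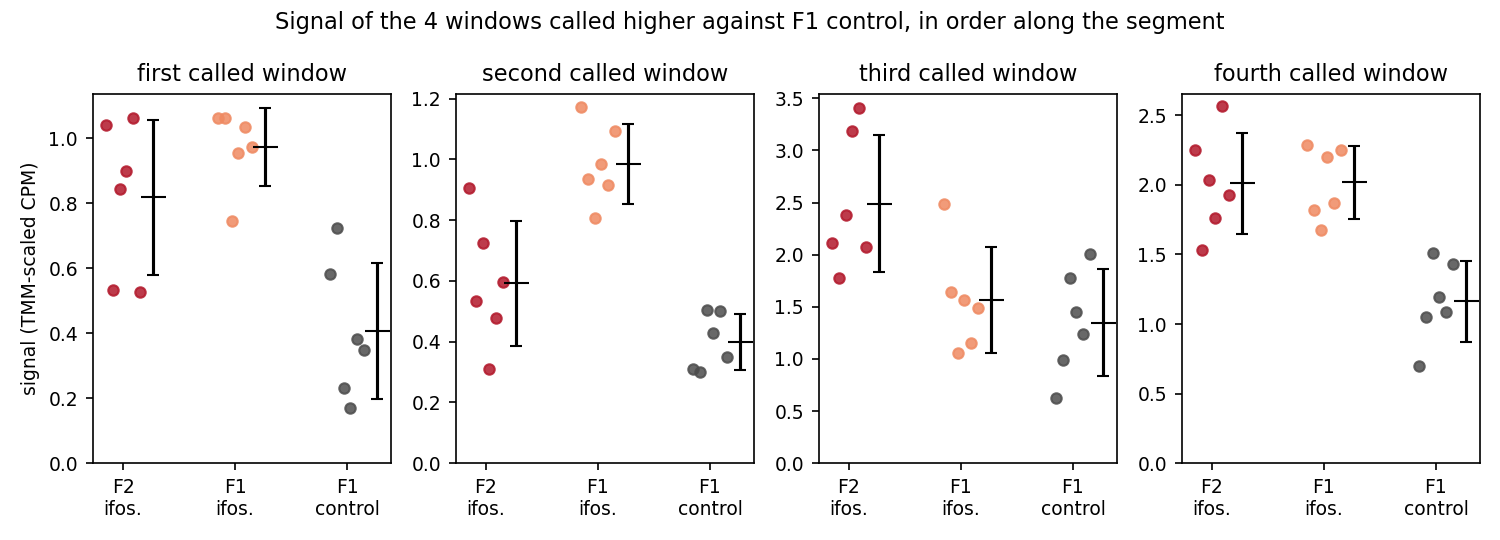
Signal (TMM-scaled CPM, axes from 0) of the 4 windows called higher against F1 control, in order along the segment (61168001, 61605001, 61681001 and 61898001), 1 point per pool with the mean and SD of 6 pools. In the fourth window all 12 ifosfamide pools lie above the controls, in the second the F2 ifosfamide pools lie mostly below the F1 ifosfamide pools, and in the third they lie mostly above them.

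The windows just outside the threshold included the direct neighbour of that window. At 61169001 the signal averaged 1.85 ± 0.0912 CPM in F2 ifosfamide, 1.92 ± 0.518 CPM in F1 ifosfamide and 1.19 ± 0.200 CPM in F1 control pools (SD, n = 6 each), with log2 fold changes to the control of 0.62 (SE 0.14) in F2 ifosfamide and 0.67 (SE 0.16) in F1 ifosfamide. At 61426001 the means were 1.63, 1.61 and 1.03 CPM in F2 ifosfamide, F1 ifosfamide and F1 control pools, with log2 fold changes of 0.66 (SE 0.15) in F2 ifosfamide and 0.63 (SE 0.17) in F1 ifosfamide. The third of the F1 contrast, at 61646001, ran the other way, with 1.42 CPM in F2 ifosfamide, 1.14 CPM in F1 ifosfamide and 1.78 CPM in F1 control pools. Its log2 fold change was -0.64 (SE 0.15) for F1 ifosfamide, whose pools were all below the controls.

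The authors' deposited table rests on the same counts of the same pools, so it is not independent of the fits given here. It had calls at the same places, with small differences. Its adjusted p-values were below 0.05 for 3 of 762 segment windows in F1 ifosfamide, at 61168001, 61605001 and 61898001. For F2 ifosfamide they were below 0.05 for 2 of 724, at 61169001 and 61898001, so that the neighbour of the first called window takes the place of 61681001. The log2 fold changes of the authors' deposited table, turned to ifosfamide over control, were 0.79 for F2 ifosfamide and 0.80 for F1 ifosfamide at 61898001.

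Around the called windows most neighbours had smaller differences from the control, without a steady decline over distance. Among tested windows 1 kb away from the 4, the median log2 fold change to the control was 0.22 in F2 ifosfamide (6 windows) and 0.19 in F1 ifosfamide (8 windows), and reads counted in 2 adjacent windows contribute to these. At 2 kb the median was -0.24 in F2 ifosfamide (3 windows) and 0.043 in F1 ifosfamide (5 windows). At 3 to 5 kb it was 0.078 in F2 ifosfamide (11 windows) and -0.097 in F1 ifosfamide (12 windows), at 6 to 10 kb it was 0.19 in F2 ifosfamide (11 of 16 windows above 0) and 0.10 in F1 ifosfamide (9 of 17), and at 11 to 20 kb it was 0.13 in F2 ifosfamide and 0.037 in F1 ifosfamide. The F2 median at 6 to 10 kb was thus close to that at 1 kb. The widest excess was at 61168001, where the windows on both sides were above 0 as well, at 0.56 and 0.62 in F2 ifosfamide and at 0.37 and 0.67 in F1 ifosfamide. The window before 61898001 did not share its excess (log2 fold change to the control 0.011 in F2 ifosfamide and -0.0052 in F1 ifosfamide), while the window after it had 0.409 CPM in F2 ifosfamide, 0.472 CPM in F1 ifosfamide and 0.225 CPM in F1 control pools (log2 fold change to the control 1.06 in F1 ifosfamide, above that of 61898001 itself).

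**Figure D4:**
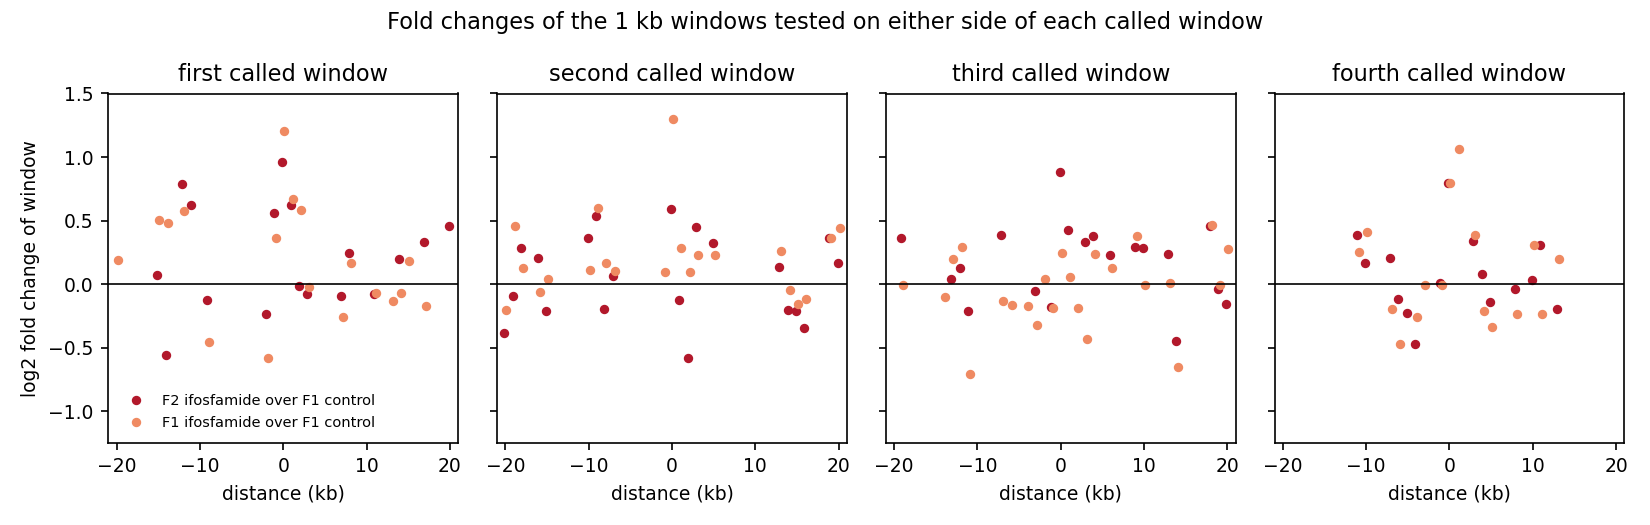
Log2 fold change to F1 control of every tested 1 kb window within 20 kb of each called window, for F2 ifosfamide and F1 ifosfamide, against distance in kb. The called window is the highest value of its neighbourhood at all 4 in F2 ifosfamide and at 2 of the 4 in F1 ifosfamide, the medians at 1 kb are 0.22 and 0.19, and values further away scatter on both sides of 0, up to 0.79.

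Whether pools high at one called window were high at the others depended on the pair and the group. After the group means were taken off the log2 signal (pseudocount 0.1 CPM), the 6 pairs of called windows had Pearson correlations over the 18 pools of -0.22 to 0.44, except 1 pair. The windows at 61681001 and 61898001, 217 kb apart, varied together (Pearson r = 0.80, permutation p = 0.00042, adjusted over 6 pairs p = 0.00252; Spearman rho = 0.74, permutation p = 0.00158, adjusted p = 0.00948). Without the 2 pools farthest from the median r was 0.71. Within groups it was 0.52 in F2 ifosfamide, 0.72 in F1 ifosfamide and 0.98 in F1 control pools (n = 6 each). The order of pools was not particular to this pair. At both windows F1 control pool 1 was the lowest control pool and F1 ifosfamide pool 1 the highest of its group. The same held at 61132001, 61975001 and 61976001, but not at every named window. The pooled values of the other pairs join unlike groups. In F1 ifosfamide all 6 pairs were positive (0.50 to 0.93), whereas in F1 control pools the 3 pairs with 61168001 were negative (-0.73 to -0.63) and the other 3 positive. In F2 ifosfamide 61168001 had 0.69 with 61681001 and 0.73 with 61898001, and the pair 61605001 with 61681001 had -0.59. The next highest pair, 61605001 with 61898001, had r = 0.44 (permutation p = 0.0882, adjusted p = 0.265) and rho = 0.53 (permutation p = 0.0419, adjusted p = 0.126). With the summed signal of the rest of the segment, each called window had a correlation of 0.042 to 0.25. For comparison, 441 pairs of adjacent tested windows had a median r of 0.22, and windows 2, 10, 100 and 500 kb apart had medians of 0.033, 0.0078, 0.033 and -0.0034. The comparison pairs were taken from tested windows of any signal. Counting error is larger where signal is lower, so their r is not on equal terms with that of the called windows. All these correlations are descriptions over sites that share the same 18 libraries, and nothing is read from their p-values.

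Complete separation of groups in single windows was counted in both directions. The segment was chosen for higher windows in these contrasts, so nothing is read from which direction was more frequent in it. Of the 761 windows with at least 10 counts per pool, 5 had all F2 ifosfamide pools above all controls (0.237% in the genome) and 0 had them all below (0.232%). Likewise 5 had all F1 ifosfamide pools above (0.164%) and 1 had them all below (0.164%). No window had all 12 ifosfamide pools below the controls (0.00322% in the genome). The right flank had as many windows with all F1 ifosfamide pools above the controls, 5 of 741, with 0 below, and the left flank had 1 of 676 above and 1 below. For F2 ifosfamide the left flank had 3 above and 1 below, and the right flank 1 above and 2 below.

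F2 and F1 ifosfamide sperm differed in many more single windows than either differed from the control, here as elsewhere in the genome. Of 793 windows tested, 12 were called higher in F2 than in F1 ifosfamide and 9 lower by edgeR's quasi-likelihood test. These are 1.51% and 1.13% of the segment's windows, beside 1.25% and 0.898% of all 1062540 windows tested, so the shares were close to those of the genome. In the flanks 18 of 1502 were called higher and 21 lower. Without both F1 ifosfamide pools 1 and 2 the segment's count was 61 (of 795 tested) in place of 21. Calls rose over the genome as well. Of 1079080 windows then tested, 32857 were called higher and 31070 lower, in place of 13268 and 9538.

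Among these windows, the 10 strongest higher and all 9 lower ones are described. The strongest of the higher windows were also among those with the highest signal of the segment. At 61976001 the signal was 2.88, 4.61 and 6.34 CPM in the lowest, median and highest F2 ifosfamide pool, 1.83, 2.68 and 3.77 CPM in F1 ifosfamide pools, and 2.18, 3.01 and 4.64 CPM in F1 control pools. The F2 and F1 ranges overlapped, and the controls lay between them. The log2 fold change of F2 against F1 ifosfamide was 0.73 (SE 0.13, adjusted p = 0.000432 in edgeR's quasi-likelihood test with Benjamini-Hochberg adjustment). Its neighbour at 61975001, which shares reads with it, had 0.62. At 62023001, the window of highest signal, F2 ifosfamide pools had 3.40, 4.79 and 5.86 CPM, F1 ifosfamide pools had 2.25, 3.03 and 3.78 CPM and F1 control pools had 3.40, 4.08 and 4.59 CPM in the lowest, median and highest pool. F1 ifosfamide was the low group here, and 5 of the 6 F2 ifosfamide pools lay above the highest control pool (log2 fold change of F2 against F1 ifosfamide 0.66, SE 0.12, adjusted p = 0.00059 by the same edgeR test).

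Of the other windows called higher, 61012001 had all F2 ifosfamide pools (0.659 to 0.842 CPM) above all F1 ifosfamide pools (0.359 to 0.550 CPM) and all F1 control pools (0.348 to 0.580 CPM). At 62039001 and 62139001 the F2 ifosfamide pools were likewise all above the F1 ifosfamide pools. The call at 62039001 held under all 17 alternatives that gave an adjusted p, but that at 61012001 was lost under 9 of 16 and that at 62139001 under 12 of 16. The remaining ones of the 10, besides 61681001, started at 61132001, 61645001 and 61858001, with log2 fold changes of 0.54 to 0.93.

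Of the lower windows, 60948001 was the one without overlap. Its F2 ifosfamide pools had 0.890, 1.02 and 1.38 CPM, its F1 ifosfamide pools 1.54, 1.72 and 2.01 CPM and its F1 control pools 1.04, 1.41 and 1.59 CPM in the lowest, median and highest pool. The controls lay between the ifosfamide groups (log2 fold change of F2 against F1 ifosfamide -0.68, SE 0.15, adjusted p = 0.00402 in edgeR's quasi-likelihood test with Benjamini-Hochberg adjustment). The strongest by p was 61154001, with 0.415 ± 0.0733 CPM in F2 ifosfamide and 0.872 ± 0.259 CPM in F1 ifosfamide pools (SD, n = 6 each) and a log2 fold change of -1.04 (SE 0.21). Besides 61605001, the others started at 61127001, 61407001, 61716001, 61717001, 62060001 and 62121001, with log2 fold changes of -1.11 to -0.62. At 16 of the 19 windows named here the F1 control mean lay between the means of the ifosfamide groups. The windows were named for the difference between those groups, which sets their means apart.

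**Figure D5:**
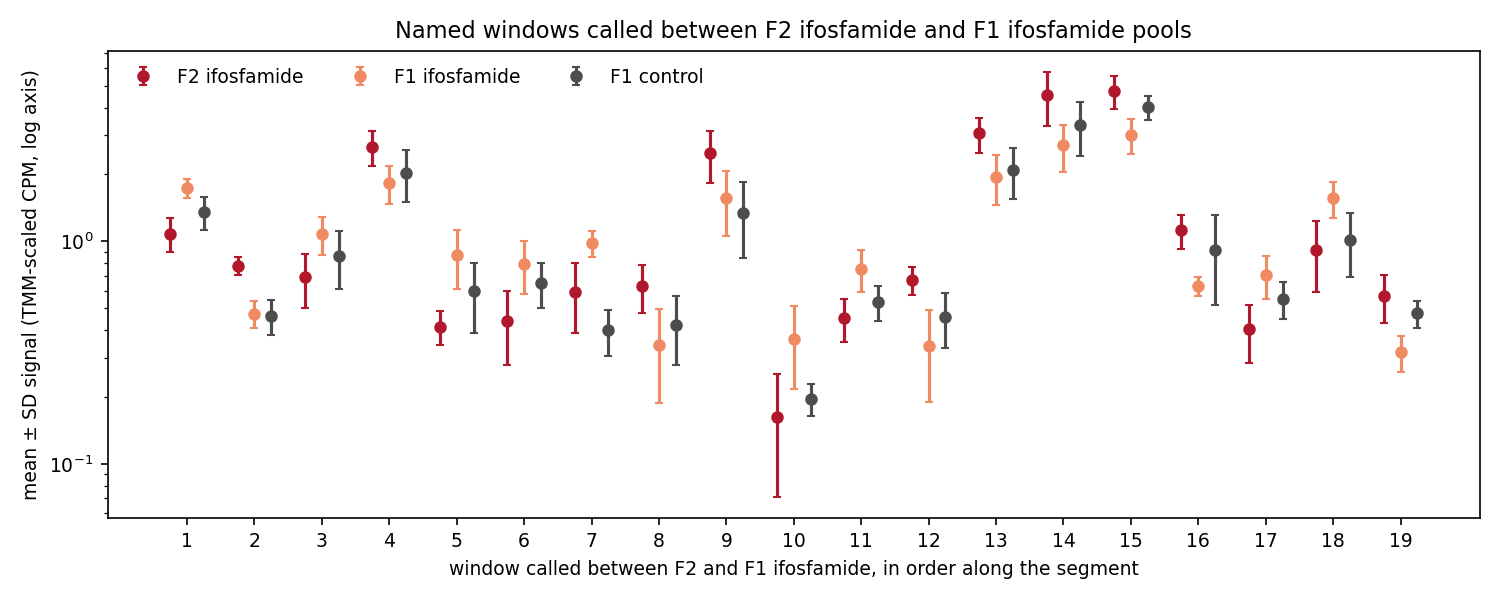
Mean and SD of 6 pools per group (TMM-scaled CPM, log axis) for the 19 named windows called between F2 and F1 ifosfamide, numbered 1 to 19 in order along the segment. Higher and lower windows are interspersed along the segment, and at 16 of the 19 the control mean lies between the F2 and F1 ifosfamide means.

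Of the 5 windows of highest signal, 3 had no call in any comparison. At 61650001 the means were 2.95 ± 0.201 CPM in F2 ifosfamide, 2.95 ± 0.300 CPM in F1 ifosfamide and 2.92 ± 0.337 CPM in F1 control pools (SD, n = 6 each), and the log2 fold changes to the control were 0.0047 in F2 ifosfamide and 0.0024 in F1 ifosfamide. At 61142001 the means were 2.96, 2.59 and 2.74 CPM in F2 ifosfamide, F1 ifosfamide and F1 control pools, with log2 fold changes to the control of 0.11 (SE 0.12) in F2 ifosfamide and -0.083 (SE 0.13) in F1 ifosfamide. The third, 61991001, was less level, with 1.96, 2.55 and 3.11 CPM in the lowest, median and highest F2 ifosfamide pool, 3.02, 3.13 and 3.36 CPM in F1 ifosfamide pools and 2.20, 2.55 and 2.90 CPM in F1 control pools. All F1 ifosfamide pools lay above all controls, with a log2 fold change to the control of 0.30 (SE 0.13) in F1 ifosfamide and -0.046 (SE 0.12) in F2 ifosfamide. F2 against F1 ifosfamide gave -0.34 (SE 0.12, adjusted p = 0.131 in edgeR's quasi-likelihood test with Benjamini-Hochberg adjustment).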

How the data were processed

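The authors' read counts per 1 kb window are counts in 12 columns of each deposited table, per the file headers, whole and not normalized, and both tables share the 6 F1 control libraries, so they were joined. The submitters' processing notes name the Rnor_6.0 build and the tools Bowtie2, edgeR, FastQC, SAMtools and Trimmomatic, without versions. The tables also hold RPKM values computed by the authors, from which only read totals per library were recovered. The authors' deposited mean signal per group was not used. The authors' deposited log2 fold changes were turned to ifosfamide over control, and with the authors' deposited p-values they are only set beside the fit.

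Each comparison was fitted on the counts of its 12 pools over all windows with edgeR 4.0.16 (R 4.3.3): filterByExpr with a minimum count of 10, TMM factors, two-sided quasi-likelihood test without covariates, Benjamini-Hochberg adjustment over all windows tested, called at an adjusted p below 0.05. SE was taken from the F statistic. CPM is the count per 1000000 counts over all windows, scaled by TMM factors of all 18 pools. Region and bin sums, tested only between F2 and F1 ifosfamide, used exact two-sided permutation tests of log2 sums. Correlation tests permuted pools within groups 100000 times. The labels give separate pools of males, so p-values measure the spread between pools. Pools of a lineage can share F0 founders, since the labels name 5 ifosfamide-treated and 3 saline-treated F0 males. The p-values do not measure the spread between founders.

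Named windows are the 10 strongest called in each direction, those called against the control, the 3 with the smallest p not called, the 5 of highest signal and those at the edges. The segment, its windows and these lists were chosen with earlier results of these data known. Signal classes, the correlations of called windows and all values without F1 ifosfamide pools 1 and 2 were added after seeing the data. Replicate numbers were given by the labels, but same-numbered pools did not vary together (r of -0.14 to 0.085), so the fits had no block. The fit was tested on simulated counts with known changes. No genome of the Rnor_6.0 build was used, so positions carry no gene names, annotation or sequence. Counting intervals cover counting error only, since reads carry no molecular identifiers.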

Additional observations from a re-analysis of the deposited data

Results flagged for a closer look

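In 1 of the 36 groups of 6 pools examined, a pool stood away from the rest of its group, where chance flags about 1 group in 20. It was F1 ifosfamide pool 3 at 61168001, with 0.746 CPM against 1.06 CPM in the highest pool of its group, and its gap to the next pool was 0.662 of the group's range (Dixon's test). It still lay above every F1 control pool. The 36 groups did not cover every named window, and pools stood away at others. At 61154001 F2 ifosfamide pool 6 had 0.561 CPM, against 0.411 CPM in the next pool of its group. At 61407001 F1 control pool 5 had 0.942 CPM, against 0.657 CPM in the next.

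At 61605001 and 61681001 the values of F2 and F1 ifosfamide differed, in opposite directions. The first window had been chosen for high F1 ifosfamide pools and the second for high F2 ifosfamide pools, so the choice favours these directions and the tests are not independent of it. The log2 fold change of F2 against F1 ifosfamide was -0.70 at 61605001 (adjusted p = 0.0236 in edgeR's quasi-likelihood test, 0.0046 to 0.114 under the alternatives) and 0.64 at 61681001 (adjusted p = 0.00761 by the same edgeR test, 1.09e-05 to 0.0547 under the alternatives). F2 lay below F1 ifosfamide in the first and above it in the second by group means, and neither window was free of overlap between the groups. Generation and pool size differ together between these groups and cannot be told apart.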

How the results depend on the processing

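In the F2 contrast with the control 6 windows were called with the replicate number as a block in place of 2 (61168001, 61169001, 61426001 and 61975001 were added), and 1 with DESeq2; leaving out 1 pool gave 1 (without F2 ifosfamide pool 5) to 6 (without F2 ifosfamide pool 1 or control pool 6). The F2 median was 0.020 with a minimum count of 5 and 0.026 with 30. In the F1 contrast 1 window was called with a minimum count of 30 in place of 3, and 0 with DESeq2, which gave none of the 3 an adjusted p (35 of 783 segment windows had one). Leaving out 1 pool gave 3 to 7, with 7 without control pool 5, and leaving out F1 ifosfamide pools 1 and 2 gave 9, the same 3 among them. Over the genome that last fit called 547 windows higher and 3658 lower, in place of 57 and 567. The F1 median was -0.013 with a minimum count of 30 and 0.024 without both pools, and the F1 log2 ratio of the sum was 0.019 scaled to the counts of both flanks (0.0045 without both pools).

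Between F2 and F1 ifosfamide 21 windows were called, against 13 with a minimum count of 30, 13 with the replicate block, 8 with DESeq2, 61 without F1 ifosfamide pools 1 and 2 and 10 to 35 without 1 pool. The count was 10 without F2 ifosfamide pool 3 or 4 or F1 ifosfamide pool 3, 12 without F1 ifosfamide pool 6, 13 without F2 ifosfamide pool 6 and 35 without F1 ifosfamide pool 1. Without F1 ifosfamide pools 1 and 2 calls over the genome rose too, to 32857 higher and 31070 lower from 13268 and 9538. The log2 ratio of the sum, 0.00045, was -0.0090 away from called windows, -0.0095 with windows capped and -0.0030 to 0.0064 without 1 pool. Scaled to the counts of both flanks it was 0.028 (exact permutation p = 0.0433, unadjusted). So scaled without F1 ifosfamide pools 1 and 2 it was 0.043 (exact permutation p = 0.00476, unadjusted). Those pools had the highest F1 ratios of segment to flanks, so nothing is read from that p. Away from called windows without both pools the log2 ratio was -0.0073. The segment median was -0.014 to 0.019 without 1 pool. With 200 kb bins 4 of the F2 contrast's bins lay above both flanks in place of 1 at 100 kb, and with 50 kb bins 1 bin did between F2 and F1 ifosfamide in place of 0. The cause was not tested. Of the named calls, 3 of 3 in F1, 0 of 2 in F2 and 8 of 19 between F2 and F1 ifosfamide held under every alternative that gave an adjusted p. At 61681001 DESeq2 ended the F2 call (adjusted p = 0.286), and at 61898001 leaving out F2 ifosfamide pool 5 did (adjusted p = 0.0540 by edgeR). The block ended none of the named calls against the control. At this depth single windows vary by 24.5% between control pools, so small differences of one window were not detectable.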
